A study of Drosophila melanogaster with 10 samples.

Results

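Nkd lacking 30 amino acids (NkdΔ30aa) was compared with full-length Nkd in *Drosophila* wing disks, across all genes, from the 2 libraries labelled Nkd_del_30aa and the 2 labelled Nkd, which are 4 of the 10 libraries of the series. The deleted stretch holds a potential nuclear localization signal. RNA came from about 70 wing disks of late larvae per sample, kept at 25 °C, with genotypes MS1096 > Nkd_GFPC and MS1096 > Nkd_del_30aa_GFPC. Levels are also given for disks of GFP (MS1096 > GFP), NkdΔD6 (MS1096 > Nkd_del_D6_GFPC) and NkdΔR1S (MS1096 > Nkd_del_R1S_GFPC), 2 libraries each. All 5 groups carry the MS1096-Gal4 driver, which is active in the central wing pouch, so transgene-negative cells of the disk contribute to every library. The Nkd lines had been outcrossed to a common background, and their insertion sites are not stated in the sources used here. Samples of a group are called biological duplicates without word of separate crosses, so a p-value here rests on the spread of these samples, which may be partly technical. The question was which transcripts differ between disks that express the 2 forms at a like level of nkd RNA. Protein levels were not measured in these data. Of 14420 genes that had a count, 9264 were tested.

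Nkd (Naked cuticle) is a feedback inhibitor of Wingless (Wg), the fly Wnt ligand, and binds Dishevelled, the cytoplasmic relay of that pathway. In the wing disk Wg from the dorsoventral margin acts with Dpp, Hedgehog, Notch, EGF receptor, Hippo and planar polarity signals to set the size, veins and margin of the wing. Nkd reaches the nucleus as well as the cytoplasm, and deletions of its nuclear localization signals have been used to separate these pools.

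The series held 18695697 to 20941842 counts per library, and the 4 libraries compared held 19224468 to 20941842. Levels are CPM, that is, counts scaled to the library total, after TMM normalization. A gene was called at a fold change over 1.5 with an adjusted p under 0.05 by edgeR's quasi-likelihood test, fitted on all 10 libraries. The transcripts of disk regions were present in each library: the 16 listed pouch markers, among them salm and Dll, were at 0 in none.

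The targeted gene was at a like level in both groups. nkd (FBgn0002945, chromosome 3L from 19003741 to 19045449 of BDGP6) stood at 1141 and 1190 CPM in the Nkd libraries and at 1176 and 1498 CPM in the NkdΔ30aa libraries. GFP disks, which hold only the endogenous gene, had 37.3 and 70.1 CPM. The log2 fold change between NkdΔ30aa and Nkd was 0.20 (standard error 0.32, adjusted p = 0.729 by edgeR), and it was -0.23 (standard error 0.26) once each library's trend on gene length was removed. Gene counts join the transgene with the endogenous gene and do not show the deletion. NkdΔD6 disks held 1349 and 993 CPM of nkd and NkdΔR1S disks 345 and 512 CPM, so that NkdΔR1S had the lowest level of the 4 Nkd groups.

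Of the 9264 genes, 543 (5.86%) were called higher and 76 (0.82%) were called lower in NkdΔ30aa than in Nkd disks. The median log2 fold change was 0.87 among the former and -0.96 among the latter, against 0.00 over all genes tested. The split between higher and lower calls leaned on how the libraries were scaled. When the salivary gland markers were left out of the normalization, 40 genes were higher and 40 were lower, so that 50% of calls were higher in place of 87.7%. Without Nkd replicate 1, edgeR called 9 (0.0912%) higher and 11 (0.111%) lower, all of them among the calls above, and the lone Nkd library is then assumed to vary like the other groups. Without Nkd replicate 2 the counts were 86 (0.864%) and 57 (0.573%). Leaving out either NkdΔ30aa library gave 0 higher and 1 lower, the lone call being GstD3. Without adjustment of p, 938 (10.1%) were higher and 313 (3.38%) lower at p under 0.05 by edgeR. DESeq2 on the 4 libraries, with adjusted p, called 734 (5.43%) and 220 (1.63%). Both NkdΔ30aa libraries lay above both Nkd libraries in 3261 genes (35.2%) and below both in 2549 (27.5%), called or not.

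A large share of the higher calls followed the length of the gene. The median exon length was 5868 bases for the higher calls, 1422 bases for the lower calls and 2020 bases over all 9264 genes. Of the 543 higher calls, 433 (79.7%) lay among the 1853 genes with at least 3939 bases of exon, and 1 of the 76 lower calls did. In 10 bins of exon length the median log2 fold change climbed at every step, from -0.27 in genes of 67 to 774 bases to 0.65 in genes of 5619 to 71820 bases.

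**Figure D1:**
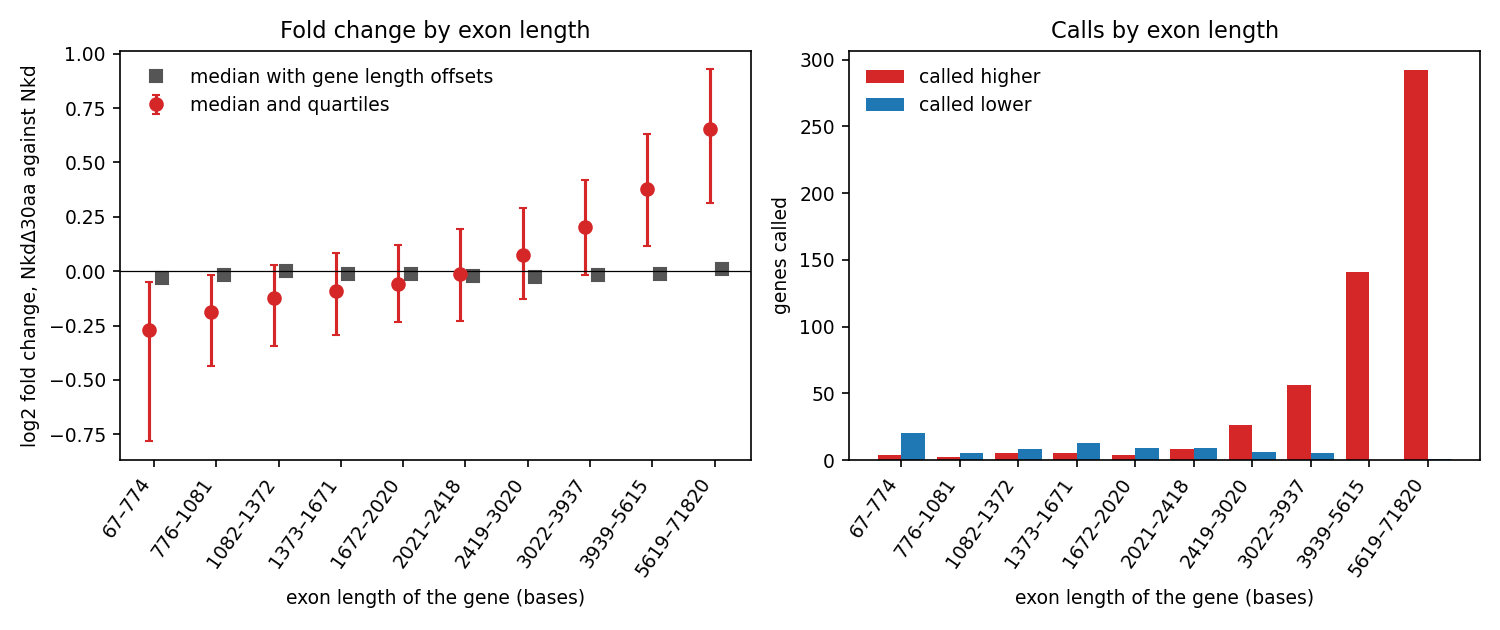
Left, log2 fold change of NkdΔ30aa against Nkd in 10 bins of exon length (circles, median; bars, quartiles; squares, median with gene length offsets). Right, number of genes called higher and lower in each bin. The medians run from -0.27 to 0.65 and stay between -0.03 and 0.01 with offsets, and 292 of the higher calls fall in the longest bin.

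The trend was seen in each pairing of libraries. Across genes, the rank correlation of exon length with the log2 difference was between 0.449 and 0.508 for the 4 pairings of a NkdΔ30aa with a Nkd library. It was 0.163 between the Nkd libraries and -0.07 between the NkdΔ30aa libraries, so the 2 NkdΔ30aa libraries were alike in this respect. Relative to the mean of all 10 libraries, the correlation of a library's deviation with length was 0.620 and 0.551 in NkdΔ30aa and 0.00309 and 0.287 in Nkd. Genes are not independent and these correlations are descriptions with no p. With offsets that take out each library's trend on length, 35 genes (0.378%) were called higher and 52 (0.561%) lower, of which 34 and 35 were also called without offsets. Whether the trend comes from the RNA of the disks or from how the libraries were made was not tested.

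Other tissues also left transcripts in these samples, most of all in Nkd replicate 1. The 17 listed salivary gland markers, glue protein genes among them, summed to 17036 CPM in replicate 1 of Nkd but 363 CPM in replicate 2, with no filter on low genes. The same sum was 1708 and 386 CPM in the NkdΔ30aa libraries and 5099 and 812 CPM in GFP disks. Nkd replicate 1 thus stood above every other library, and the ranges of the groups overlapped. Sgs5, which encodes a salivary glue protein, was at 4576 and 39.5 CPM in the Nkd libraries and at 288 and 19.6 CPM in NkdΔ30aa. Sgs3, another glue gene, was at 522 and 30.9 CPM against 267 and 17.3 CPM. None of the 16 salivary markers tested was called in either direction, their median log2 fold change being -1.96. Between 0 and 1 of the 17 were at 0 in each of the 4 libraries.

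Gut markers (24 listed) followed the same order, with 3781 and 27.5 CPM in Nkd and 347 and 121 CPM in NkdΔ30aa disks, and 1 to 6 members at 0. Fat body markers (18 listed) summed to 3680 and 981 CPM against 1750 and 684 CPM, with 2 to 4 at 0. For larval muscle (27 listed, 2 to 4 at 0) the sums were 1366 and 1042 CPM against 1138 and 1073 CPM, which overlap. Hemocyte markers (16 listed, none at 0) gave 550 and 522 CPM in Nkd and 761 and 621 CPM in NkdΔ30aa. Of the 15 hemocyte markers tested, 8 had a positive and 7 a negative log2 fold change, with a median of 0.06, and none was called. Pouch markers summed to 1594 and 1719 CPM in Nkd and 2116 and 2241 CPM in NkdΔ30aa. In these bulk samples more cells of a kind cannot be told apart from more RNA per cell. The part of other tissues in the differences below was not tested beyond the values without Nkd replicate 1.

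**Figure D2:**
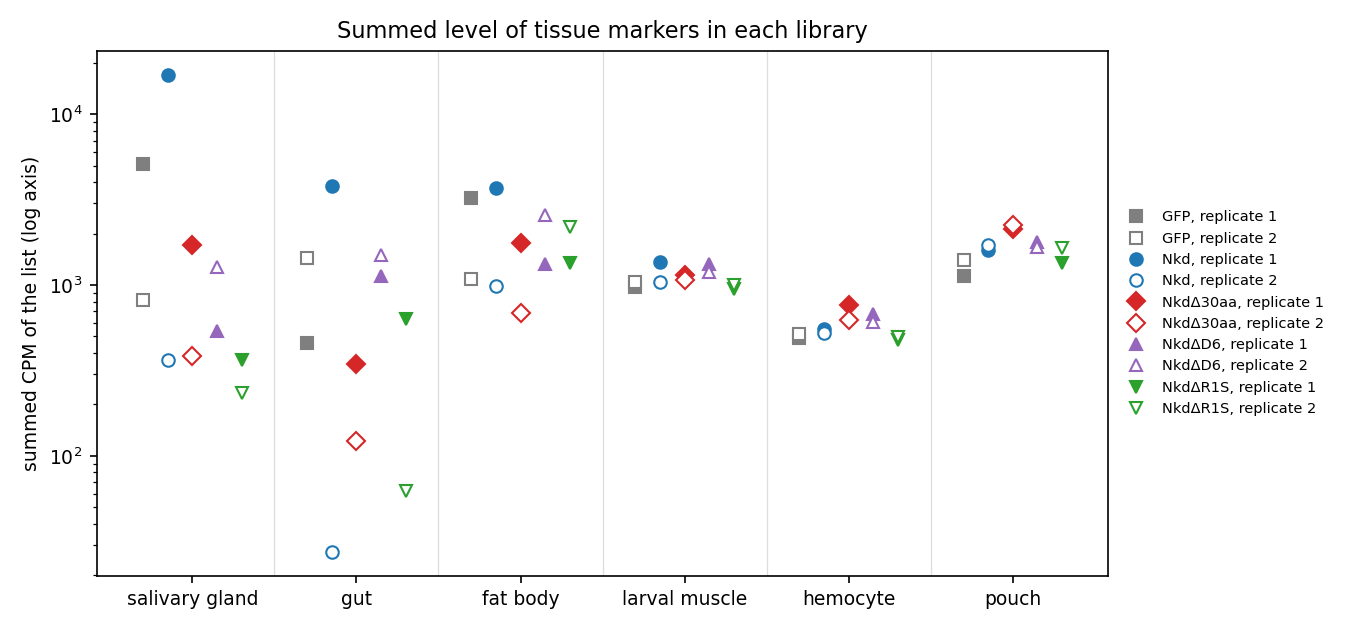
Summed level of each list of tissue markers (CPM, log axis) in each of the 10 libraries, by group (color and shape) and replicate (filled, 1; open, 2). Nkd replicate 1 has the highest salivary gland sum, 17036 CPM, while the pouch sums of both NkdΔ30aa libraries, 2116 and 2241 CPM, lie above those of both Nkd libraries.

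Among the largest increases were several genes at nearly no level in Nkd disks. Hsc70-2 (chromosome 3R from 13044759 to 13047388), which encodes a heat shock cognate chaperone, stood at 0.446 and 0.0975 CPM in Nkd disks and at 19.4 and 19.2 CPM in NkdΔ30aa disks. Its log2 fold change was 6.12 (standard error 0.64, adjusted p = 0.0114 by edgeR). Hsc70-2 was also present in NkdΔD6 disks, at 10.1 and 12.9 CPM, and was at 0.222 and 0.464 CPM in GFP and at 0 in both NkdΔR1S libraries. Of 27 tested heat shock and chaperone genes Hsc70-2 alone was called, or 3.70% higher beside 5.86% of all genes. The list had a median of -0.39, with 17 negative values.

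CG17364 (chromosome 3L from 13977905 to 13993400) was at 0.198 and 0 CPM in Nkd and at 6.43 and 14.3 CPM in NkdΔ30aa disks. The other 6 libraries held at most 0.154 CPM, so the 2 NkdΔ30aa libraries stood apart from the other 8. Its log2 fold change was 6.62 (standard error 1.06, adjusted p = 0.0291), and its 4 counts in Nkd against 441 in NkdΔ30aa disks gave a 106-fold ratio (95% exact interval 41.1 to 390, counting error only).

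Culd (chromosome 3L from 8352355 to 8356296), which encodes a transmembrane protein with CUB and LDL receptor domains, was at 10.3 and 4.09 CPM in Nkd and at 97.6 and 78.5 CPM in NkdΔ30aa. Outside NkdΔ30aa the 8 libraries ranged from 3.39 to 10.3 CPM. The log2 fold change was 3.62 (standard error 0.42, adjusted p = 0.0162). Culd was again a gene whose level in NkdΔ30aa lay away from every other group.

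ebd2 (chromosome 3L from 21344768 to 21349288), an earthbound family gene of the Wg pathway, was at 6.596 and 7.46 CPM in Nkd and at 29.4 and 31.5 CPM in NkdΔ30aa disks. The other 6 libraries held 6.95 to 10.5 CPM. Its log2 fold change was 2.11 (standard error 0.20, adjusted p = 0.00531), 2.16 with gene length offsets, and between 1.93 and 2.13 with 1 replicate left out. Its level in NkdΔ30aa thus lay above all other libraries.

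Plp, which encodes the centrosomal Pericentrin-like protein, was at 21.4 and 32.1 CPM in Nkd and at 109 CPM in both NkdΔ30aa libraries, a log2 fold change of 2.02 (standard error 0.25) that was 1.25 with gene length offsets. Its exons sum to 10794 bases. Cadps, a gene of dense core vesicle release on chromosome 4, was at 2.68 and 2.24 CPM against 14.1 and 12.8 CPM (2.45, standard error 0.26, adjusted p = 0.00734). GFP disks lay between the groups, at 7.60 and 6.44 CPM. A lack of overlap between the Nkd and NkdΔ30aa libraries was part of the rule that picked both genes.

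sordd2 on chromosome X was at 3.27 CPM in both Nkd libraries and at 15.7 and 14.7 CPM in NkdΔ30aa, and NkdΔD6 disks had 12.9 and 14.5 CPM. CG5618 (5.85 and 3.75 CPM in Nkd, 23.04 and 21.4 CPM in NkdΔ30aa) and CG9121 (2.43 and 2.49 CPM, 10.5 and 9.49 CPM) rose by 2.21 and 2.02 on the log2 scale. All 3 genes stayed called with gene length offsets. In CG9121, 20.2% of the exon bases overlap exons on the other strand, and no source used here states how the counting treated strand. Msp300, a nesprin that links nuclei to the cytoskeleton, was at 25.3 and 30.7 CPM against 98.6 and 111 CPM. Its log2 fold change of 1.90 fell to 0.37 with gene length offsets and was then not called (adjusted p = 0.432). Msp300 has 69810 bases of exon.

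Ect3 (chromosome 3R from 11999278 to 12003516), which encodes a beta-galactosidase family enzyme, was at 32.4 CPM in both Nkd libraries and at 2.16 and 2.84 CPM in NkdΔ30aa. GFP had 21.03 and 34.5 CPM, NkdΔR1S 24.0 and 27.2 CPM, and NkdΔD6 6.02 and 7.12 CPM, so both deletions of a nuclear localization signal were below the other groups. The log2 fold change against Nkd was -3.69 (standard error 0.26, adjusted p = 0.00342).

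GstD3 (chromosome 3R from 12373068 to 12373813), a glutathione S-transferase gene of the delta class, was at 64.8 and 68.6 CPM in Nkd and at 4.85 and 7.81 CPM in NkdΔ30aa. The other 6 libraries held 23.2 to 152 CPM, all above NkdΔ30aa. Its log2 fold change was -3.39 (standard error 0.26, adjusted p = 0.00477), and GstD3 alone stayed called whichever of the 4 libraries was left out. GstD9, of the same class and cluster, was at 67.4 and 68.9 CPM in Nkd against 27.1 and 26.6 CPM in NkdΔ30aa, or -1.35 on the log2 scale (standard error 0.16, adjusted p = 0.0104). For GstD9 it was Nkd that stood apart, since the remaining 6 libraries held 15.9 to 31.8 CPM. Delta class genes are close copies of each other, and the sharing of reads among them in the authors' counting is uncertain. Of 27 glutathione S-transferase genes tested these 2 (7.41%) were called lower, beside 0.82% of all genes. The list had 5 positive values and a median of -0.23, against 50.4% positive over all genes, and its median exon length was 887 bases, in a length bin with a median of -0.19. With gene length offsets both calls stayed, 9 of 27 values were positive and the median was -0.16.

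CG32373 was at 63.3 and 68.5 CPM in Nkd and at 21.5 and 23.6 CPM in NkdΔ30aa (-1.55, standard error 0.15, adjusted p = 0.00685), and CG43897 at 16.6 and 15.6 against 6.001 and 4.74 CPM (-1.58, standard error 0.17, adjusted p = 0.00804). In both genes NkdΔR1S disks were near NkdΔ30aa, with 27.7 and 22.4 CPM of CG32373 and 6.10 and 5.57 CPM of CG43897. spz5, a Spätzle family ligand of Toll receptors, was at 7.24 and 8.29 CPM against 2.11 and 3.02 CPM, below all other libraries. Spn47C, a serpin gene, was at 12.6 and 16.5 against 4.03 and 2.09 CPM, and NkdΔD6 disks had 2.68 and 3.36 CPM. CHKov2, of a choline kinase-like family, was at 15.9 and 15.2 CPM against 4.99 and 6.37 CPM. The log2 fold changes of spz5, Spn47C and CHKov2 were -1.59, -2.25 and -1.45, and all stayed called with gene length offsets. CG13053 (27.7 and 51.6 CPM against 7.83 and 8.09 CPM), betaTub97EF, a beta-tubulin gene (12.3 and 20.96 against 5.52 and 4.46 CPM), and snRNA:U12, of the minor spliceosome (9.97 and 9.55 against 4.08 and 2.98 CPM), fell by 2.32, 1.74 and 1.47 and were not called with offsets.

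**Figure D3:**
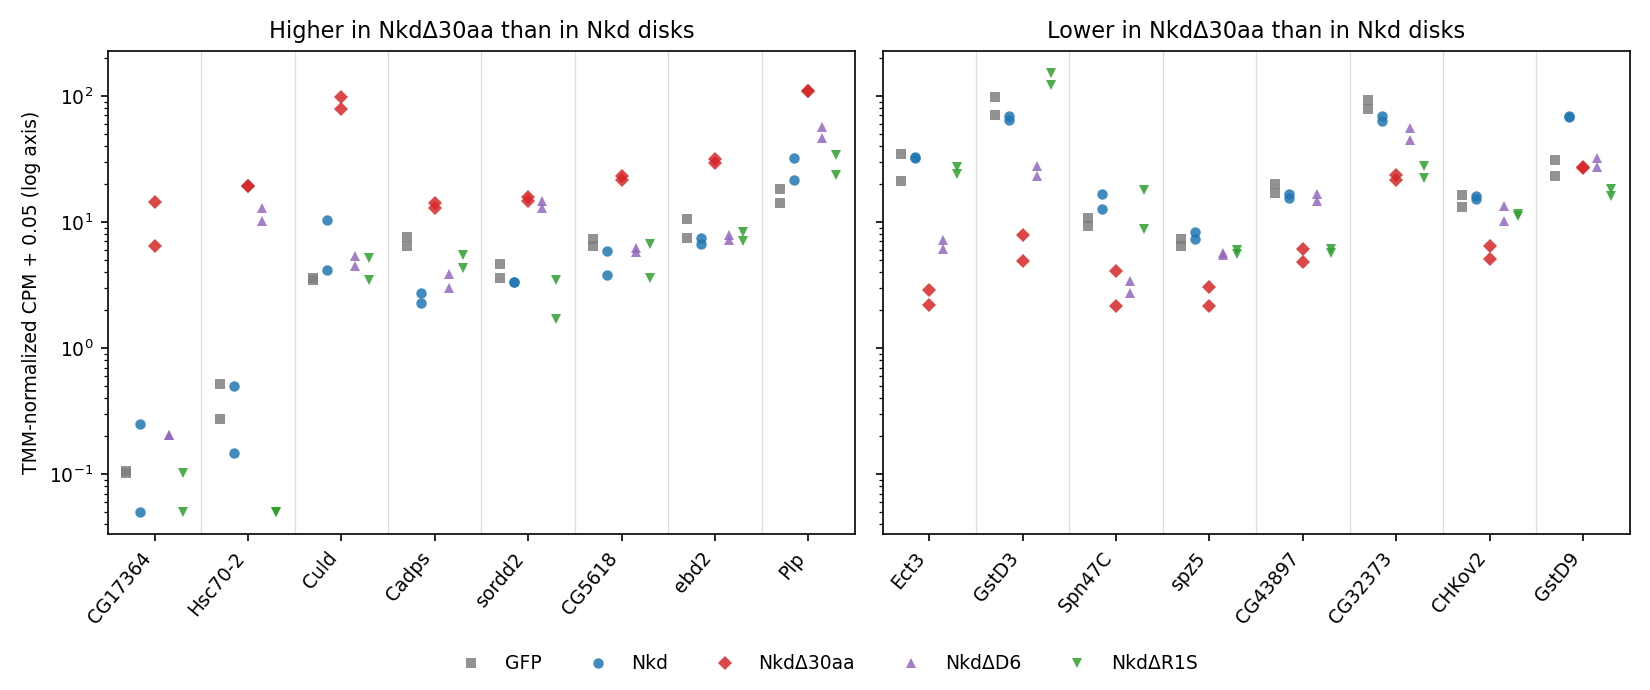
TMM-normalized level (CPM plus 0.05, log axis) in each of the 10 libraries for the 8 largest increases (left) and the 8 largest decreases (right) that were called with and without gene length offsets at a mean of at least 5 CPM. Points are libraries, color and shape give the group. Culd and ebd2 are high in NkdΔ30aa alone, Hsc70-2 and sordd2 also in NkdΔD6 disks, and Ect3 is low in both.

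Some called genes were close to silent in a compared group and clear in the other. Counting those under 0.5 CPM in both libraries of one group and over 1 CPM in both of the other, 12 were higher and 9 were lower in NkdΔ30aa, and 12 of the 21 were also called with gene length offsets. The genes named in this and the next paragraph were picked after their values were seen, apart from Ilp8, and all have a low mean level. CG33509 (chromosome 2L from 21084605 to 21086506) had 3.87 and 4.29 CPM in the Nkd libraries and 0 in the other 8. Against the limit of 3 counts per library that a count of 0 allows, it was at least 28.8-fold lower in NkdΔ30aa. ppk13, a DEG/ENaC channel gene of the pickpocket family that starts 284 bases further on, had 7.69 and 7.12 CPM in Nkd and 0 and 0.0465 CPM in NkdΔ30aa, a 313-fold ratio (95% exact interval 55.8 to 12415). This neighboring pair was close to silent in every library without full-length Nkd, NkdΔR1S included, at 0.0565 CPM or less.

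lncRNA:CR46123 was at 2.28 and 1.46 CPM in Nkd, GFP and NkdΔR1S disks held 2.73 to 3.83 CPM, and all NkdΔ30aa and NkdΔD6 libraries were at 0, which is at least 13.2-fold lower in NkdΔ30aa than in Nkd. CG13032 was at 4.56 and 3.80 CPM in Nkd and 0.0480 and 0.0465 CPM in NkdΔ30aa. It was also low in GFP (0.166 and 0.103 CPM) and NkdΔD6 disks (0.154 and 0.0509 CPM), while NkdΔR1S disks had 5.25 and 3.22 CPM. Those 2 genes were called in NkdΔ30aa against Nkd with offsets as well. In the other direction, Cyp6t3, a cytochrome P450 gene, was at 0.397 and 0.439 CPM in Nkd and at 8.35 and 7.63 CPM in NkdΔ30aa, and at 8.80 and 6.21 CPM in NkdΔD6 disks. Tmc, a transmembrane channel-like gene, was at 0.0992 and 0.0487 CPM against 4.08 and 3.53 CPM. GFP disks had 1.22 and 1.39 CPM of Tmc, NkdΔD6 disks 2.01 and 1.68 CPM and NkdΔR1S disks 1.30 and 0.869 CPM. For Tmc, Nkd was thus the lowest group. lncRNA:CR46094 was at 0.0496 and 0 CPM in Nkd and at 2.11 and 2.42 CPM in NkdΔ30aa, with at most 0.0555 CPM in the other 6 libraries. CR44383, a pseudogene that ends 11 bases before sordd2, was at 0.0992 and 0 CPM in Nkd, at 6.14 and 3.39 CPM in NkdΔ30aa and at 3.14 and 4.27 CPM in NkdΔD6 disks. This pair thus had the same groups high. CG6912 and asRNA:CR45600 overlap at their ends on chromosome 3R. In the latter, 63.0% of the exon bases overlap exons on the other strand, so its level is uncertain. CG6912 was at 6.14 and 4.70 CPM and asRNA:CR45600 at 4.42 and 3.67 CPM in NkdΔ30aa, and both were under 0.5 CPM in Nkd disks. GFP disks had 5.72 to 6.55 CPM of these, NkdΔD6 disks 0.407 to 1.29 CPM and NkdΔR1S disks 0.452 CPM or less. For this pair GFP and NkdΔ30aa were the high groups and Nkd and NkdΔR1S the lowest, and the call of CG6912 was lost with gene length offsets. Ilp8, an insulin-like peptide gene released by damaged or overgrown disks, was at 0.347 and 0.146 CPM against 2.54 and 3.49 CPM, a difference of 3.58 on the log2 scale (standard error 0.91, adjusted p = 0.0484) that was not called with gene length offsets (adjusted p = 0.0795).

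**Figure D4:**
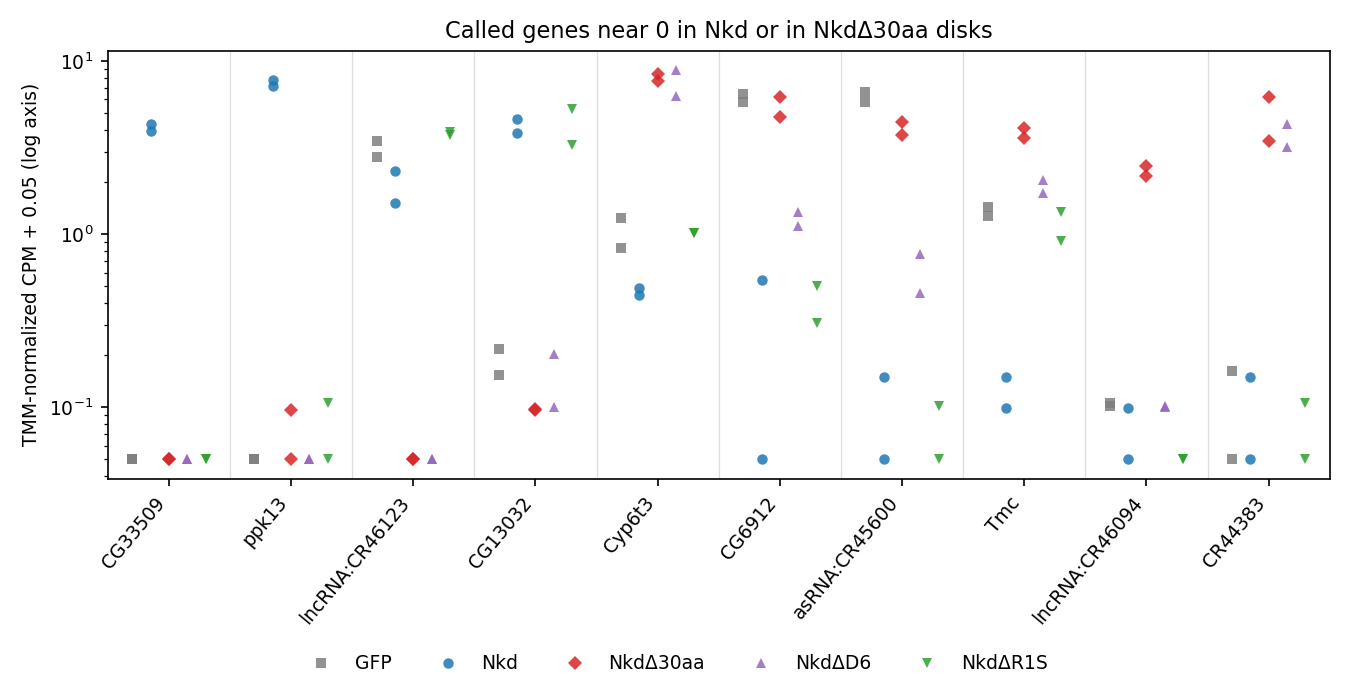
TMM-normalized level (CPM plus 0.05, log axis) in each of the 10 libraries for 10 called genes close to 0 in Nkd or in NkdΔ30aa disks. CG33509 and ppk13 are seen in the 2 Nkd libraries, at 3.87 to 7.69 CPM, and lncRNA:CR46094 in the 2 NkdΔ30aa libraries, at 2.11 and 2.42 CPM.

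In the Wg pathway itself, wg was at 94.1 and 90.2 CPM in Nkd and at 111 and 104 CPM in NkdΔ30aa (log2 fold change 0.22, standard error 0.16, adjusted p = 0.399). pan, which encodes the TCF factor of the pathway, was at 102 and 91.5 CPM against 96.4 and 85.01 CPM (-0.09, standard error 0.14, adjusted p = 0.701). The libraries of pan overlapped, and neither gene was called. pan has 14425 bases of exon, and with gene length offsets its value was -1.04 (adjusted p = 0.0708), which became -1.27 and called (adjusted p = 0.0300) when Nkd replicate 2 was left out as well. Of 45 pathway members tested, 4 (8.89%) were higher and 0 were lower, beside 5.86% of all genes, with a median of 0.24. They were ebd2, nej, Apc and otk, the last named only to complete the count. nej, the CBP acetyltransferase gene, was at 45.2 and 66.4 CPM against 167 and 142 CPM (1.47, standard error 0.30, adjusted p = 0.0341), and Apc, of the destruction complex, at 22.6 and 32.4 against 65.0 and 55.6 CPM (1.13, standard error 0.23). With gene length offsets ebd2 was the only higher call of the list, 2 members were called lower, and the list's median was -0.01. The 2 lower calls, named after their values were seen, were sgg (-0.73) and CtBP (-0.62), which have 12445 and 6448 bases of exon and were at 0.12 and -0.06 without offsets. Of 18 tested targets of Wg and of the margin, 1 (5.56%), Dll, was higher, near the 5.86% of all genes.

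Among 66 genes of wing and vein morphogenesis, 21 (31.8%) were called higher and 0 lower in NkdΔ30aa, beside 5.86% and 0.82% of all genes. The median was 0.42 with 57 positive values, against 50.4% positive over all genes. ft, the giant cadherin of growth and polarity control, was at 100 and 157 CPM in Nkd and 334 and 307 CPM in NkdΔ30aa (1.32, standard error 0.23, adjusted p = 0.0295). salm, a zinc finger factor of the central pouch and a target of Dpp, was at 42.2 and 65.4 CPM against 123 and 137 CPM (1.28, standard error 0.25, adjusted p = 0.0329). Dll, the homeobox gene of distal limb fate, was at 56.8 and 51.9 CPM against 94.3 and 110 CPM (0.91, standard error 0.14, adjusted p = 0.0291). All 3 had NkdΔ30aa libraries above both Nkd libraries, and above GFP disks. In the GFP libraries the correlation of the deviation with exon length was -0.616 and -0.479, opposite in sign to NkdΔ30aa. The part of length in the difference from GFP was not tested. With gene length offsets the list held 1 higher call, Dll (0.71, adjusted p = 0.0382), 2 lower calls and a median of 0.03, with 39 of 66 values positive. Without Nkd replicate 1 it held 0 higher calls and without Nkd replicate 2 it held 3. Of 16 pouch markers, 4 (25.0%) were higher: salm, Dll, dve and, to complete the count, salr. All 16 had a positive value, against 50.4% of all genes, and 11 did with offsets. Their median of 0.49 was 0.12 with offsets. Their median exon length was 4778.5 bases, in a length bin with a median of 0.38.

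Other signaling lists followed, with counts above 5.86% for many and with few calls left once length was taken out. Of 27 Dpp pathway genes 8 were higher (median 0.49), with shn, a zinc finger corepressor partner of Smads, at 22.3 and 44.6 CPM in Nkd against 81.6 and 83.7 CPM. Of 28 Hedgehog pathway genes 3 were higher (median 0.30): nej, en, the selector of the posterior compartment (51.8 and 56.3 against 84.5 and 93.7 CPM), and disp, which releases the Hedgehog ligand. Of 31 genes of the EGF receptor and MAPK pathway 7 were higher (median 0.31), among them Egfr at 133 and 173 against 335 and 305 CPM, Nf1 and cic. None of the 3 lists had a higher call with gene length offsets, the Hedgehog and EGF receptor lists each had 1 lower call, and the Dpp list kept a median of 0.19.

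Of 41 Hippo pathway genes 10 were higher (median 0.37), with ds, the cadherin partner of Ft, at 139 and 227 CPM in Nkd and 430 and 372 CPM in NkdΔ30aa, and wts, the kinase that restrains Yorkie, at 20.5 and 32.8 against 64.3 and 60.3 CPM. Of 24 planar cell polarity genes 8 (33.3%) were higher (median 0.40), led by kug, stan and ft. The share of the Hippo list was 24.4%, and that of all genes 5.86%. stan, a seven-pass cadherin, was at 44.3 and 61.5 against 132 and 111 CPM. Of the genes named here, ft, ds, kug and stan are long cadherin genes, with 12427 to 16852 bases of exon, while wts has 5803 bases. With offsets the Hippo and planar polarity lists held 0 calls and medians of -0.01 and 0.06.

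The Notch list held calls in both directions. Psn, which encodes presenilin of the gamma-secretase complex, was at 153 and 147 CPM in Nkd and 94.2 and 100 CPM in NkdΔ30aa. The other 6 libraries held 142 to 163 CPM, so NkdΔ30aa was the low group. The log2 fold change was -0.63 (standard error 0.09, adjusted p = 0.0253), and -0.61 with gene length offsets. N itself (220 and 276 against 470 and 404 CPM) and H, a corepressor adaptor of the pathway (40.0 and 53.4 against 101 and 89.9 CPM), rose by 0.82 and 1.03 and were not called with offsets. Of 33 Notch genes 3 (9.09%) were higher and 1 (3.03%) lower, beside 5.86% and 0.82% of all genes, with a median of 0.02. With offsets 0 were higher and 1, Psn, was lower.

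In the JNK list of 18 genes, 3 (16.7%) were higher and 1 (5.56%) lower, beside 5.86% and 0.82% of all genes. The lower one, Gadd45, a stress-induced activator of MAPK kinase kinases, was at 56.7 and 38.6 CPM in Nkd and 21.1 and 21.8 CPM in NkdΔ30aa (-1.15, standard error 0.18, adjusted p = 0.0291). It stayed called with offsets. Mmp1, a matrix metalloproteinase and JNK target, was at 31.1 CPM in both Nkd libraries against 55.3 and 52.8 CPM, a log2 fold change of 0.80 that was 0.38 with offsets (adjusted p = 0.214). None of the 3 higher JNK calls was kept with offsets, and all 4 calls of the list were lost without Nkd replicate 1. Of 14 cell death genes none was called by edgeR, nor at an unadjusted p under 0.05, nor by DESeq2 on the 4 libraries.

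Chromatin genes held some of the highest shares. Of 53 Trithorax group and remodeler genes 19 (35.8%) were higher, beside 5.86% of all genes, with a median of 0.47. brm, the ATPase of the Brahma complex, was at 98.8 and 149 CPM in Nkd and 282 and 285 CPM in NkdΔ30aa (1.19, standard error 0.24), and trx, a histone methyltransferase, at 38.8 and 68.8 against 126 and 120 CPM. Of 24 Polycomb group genes 7 (29.2%) were higher, with a median of 0.38. Psc, of Polycomb repressive complex 1, was at 20.4 and 30.7 CPM against 69.5 and 69.3 CPM (1.44, standard error 0.26, adjusted p = 0.0295) and was called with offsets as well (0.90, adjusted p = 0.0420). jing and ph-p also rose, by 1.24 and 1.08. With gene length offsets all 19 Trithorax calls were lost, 1 member was lower, 1 Polycomb call (Psc) was left, and the medians of the lists were 0.14 and 0.13. Without Nkd replicate 1 neither list had a call, and without Nkd replicate 2 they had 3 and 2 higher calls.

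Because the deleted stretch bears on nuclear entry, genes of nuclear transport were listed. Of 46 tested, 5 (10.9%) were higher and 0 lower, beside 5.86% and 0.82% of all genes, with a median of 0.18. They were nucleoporin and exportin genes, among them Nup153 (78.4 and 114.9 CPM in Nkd, 206 and 198 CPM in NkdΔ30aa), Mgtor (117 and 170, 284 and 286 CPM) and Nup358 (193 and 264, 423 and 390 CPM). Their log2 fold changes were 1.06, 0.99 and 0.83, and none was called with gene length offsets, where the median of the list was 0.00. Of 26 piRNA pathway genes 3 (11.5%) were higher, among them tud (66.5 and 136 against 285 and 255 CPM) and del (13.5 and 14.6 against 33.5 and 30.04 CPM), of which del stayed called with offsets (0.97, adjusted p = 0.0175).

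Adhesion and guidance genes had the same shape. Of 23 integrin and laminin genes 4 (17.4%) were higher, beside 5.86% of all genes. LanA was at 175 and 278 against 490 and 442 CPM and LanB2 at 121 and 151 against 272 and 245 CPM. Of 50 axon guidance genes 12 (24.0%) were higher, with Dscam1 at 11.5 and 16.6 against 40.2 and 32.6 CPM and Ten-m at 70.3 and 88.97 against 216 and 176 CPM. Of 34 polarity genes 7 were higher, scrib and crb among them. Medians of 0.37, 0.45 and 0.34 became -0.03, -0.03 and -0.12 with offsets, so the sign of these lists turned. Of 36 growth and TOR genes 7 were higher (median 0.36, 0.04 with offsets), including InR, the insulin receptor gene (23.1 and 27.4 against 56.2 and 64.5 CPM), and sima, the hypoxia factor gene (51.3 and 81.9 against 140 and 133 CPM). Of 74 cell cycle genes 5 (6.76%) were higher, near the share over all genes.

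Short housekeeping genes lay on the other side. Of 82 cytoplasmic ribosomal protein genes tested, RpL22 was higher (563 and 746 CPM in Nkd, 1215 and 1115 CPM in NkdΔ30aa), and 34.3% of its exon bases overlap another gene on the same strand. The median of this list was -0.13, of 73 mitochondrial ribosomal protein genes -0.13, of 70 oxidative phosphorylation genes -0.12 and of 34 proteasome genes -0.12. None of the last 3 lists had a call by edgeR, and at an unadjusted p under 0.05 there was 1, an oxidative phosphorylation gene that was lower. With offsets these medians were 0.05, 0.05, 0.03 and 0.00, so the sign of the ribosomal and oxidative lists turned. The median exon length of the ribosomal list was 910 bases, that of the Trithorax list 5509 bases and that of the axon guidance list 6519 bases.

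**Figure D5:**
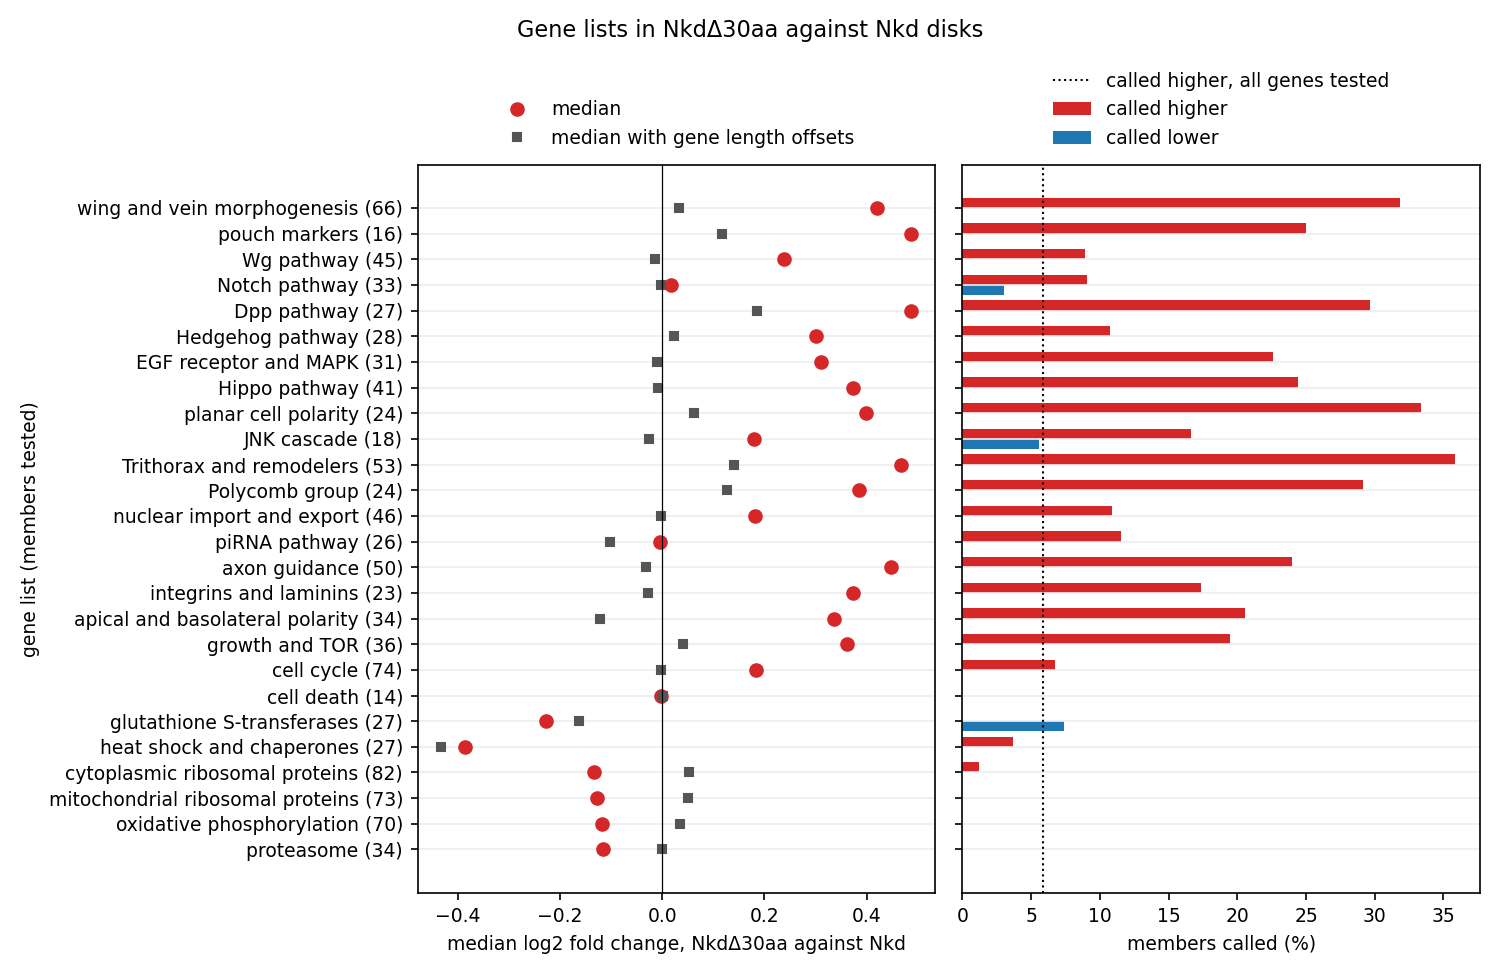
Left, median log2 fold change of NkdΔ30aa against Nkd over the tested members of each list (circles) and the same with gene length offsets (squares). Right, percentage of members called higher and lower, with the dotted line at the 5.86% of all genes called higher. The Trithorax list has 35.8% of members called higher and a median of 0.47, which is 0.14 with offsets.

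The members of these lists that stayed called without Nkd replicate 1 were ebd2, Hsc70-2, GstD3 and GstD9. Among markers of other tissues, 2 of 23 tested genes of the muscle list (8.70%) were called, Msp300 and Zasp52. So were 3 of 11 of the trachea list (27.3%) and 1 of 10 of the neuron list (10%). All were higher in NkdΔ30aa, beside 5.86% of all genes. None of these 6 was called with gene length offsets. The muscle list as a whole went the other way, with 18 of 23 values negative and a median of -1.31 (-1.82 with offsets). edgeR called 0 of its members lower, with 7 lower at an unadjusted p under 0.05, while DESeq2 on the 4 libraries called 5 lower. With edgeR 6 were called lower without Nkd replicate 2 and 0 without Nkd replicate 1. Zasp52, of muscle Z-disks and integrin sites, was at 61.5 and 85.5 CPM against 142 and 131 CPM, and trh, a tracheal selector gene, at 19.8 and 22.1 against 35.4 and 42.1 CPM. The hinge marker tio was at 18.1 and 26.9 against 60.6 and 49.2 CPM and the notum marker mirr at 55.7 and 65.4 against 126 and 111 CPM. In the hinge and in the notum list 2 of 12 genes (16.7%) were called higher. With gene length offsets neither list had a higher call, and the pouch list had 1. Without offsets the higher calls were thus not particular to pouch genes, and no test of a difference between regions was made.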

How the data were processed

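RNA was measured by paired-end sequencing of wing disk samples, 2 per group. The values are raw counts per gene, as deposited by the authors with the exon length of each gene, which they made with HISAT2 2.2.1 (BDGP6) and featureCounts, per the labels, where DESeq2 is named too. For featureCounts the version, the strand setting and the unit counted (reads or fragments) are missing from the sources used here. The table equalled the counts of 10 of 10 single-sample files. A symbol was found for 17710 of 17807 gene IDs, and the others held 0.367% to 0.544% of a library's counts. For 17636 genes the reference annotation gave an equal span.

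The test was edgeR's robust quasi-likelihood F test (edgeR 4.0.16 under R 4.3.3) after TMM and filterByExpr, with p adjusted by Benjamini-Hochberg over all genes tested, on 10 libraries, the group being the only factor, which left 5 residual degrees of freedom. The study's thresholds were used. Standard errors are the log2 fold change divided by the square root of F. At these totals, the spread between 2 samples limits precision more than depth. A count of 0 was bounded at 3 counts, or 0.140 to 0.149 CPM in the 4 libraries. Intervals and bounds cover counting error only.

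Named genes were nkd and core Wg genes, the 10 largest changes each way among called genes that averaged at least 5 CPM and had no overlap between the 4 libraries, the 8 largest each way that were also called with length offsets, up to 3 called members at each end of a list, and salivary gland genes. Exceptions are stated. The 45 gene lists were written from general knowledge, 54 entries matching no gene. The members and lists were chosen with earlier results of these data known.

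Alternatives were RLE normalization, TMM without salivary gland markers, no filter, a mean of at least 5 CPM, DESeq2 1.42.0 on all or on 4 libraries, edgeR on 4 libraries, a replicate block, offsets that remove a lowess trend (span 0.3, prior count 2) of each library on exon length, other thresholds and leaving out each replicate. Length offsets without each replicate were added after seeing the data. The code was tested on simulated counts.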

Additional observations from a re-analysis of the deposited data

How the results depend on the processing

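The counts of genes called depended on the processing. In NkdΔ30aa against Nkd, 543 genes were higher and 76 lower. Higher and lower calls were 266 and 62 with RLE normalization, 40 and 40 with salivary gland markers left out of the normalization, 85 and 70 with no filter, 368 and 134 at a mean of at least 5 CPM, and 35 and 52 with gene length offsets. Fold changes moved as well: with these offsets the median of the 543 higher calls went from 0.87 to 0.36, and 520 of them stayed positive. They were 768 and 211 by DESeq2 on all libraries, 734 and 220 by DESeq2 on 4 libraries, and 521 and 151 by edgeR on 4 libraries. At a fold change over 2 they were 177 and 37, at an adjusted p under 0.01 they were 9 and 7, and at an unadjusted p under 0.05 they were 938 and 313. Leaving out 1 replicate gave 0 to 86 higher and 1 to 57 lower calls. With length offsets as well, an alternative chosen after seeing the data, the counts were 14 and 17 (without Nkd replicate 1), 81 and 95 (Nkd replicate 2 left out), 6 and 4 without NkdΔ30aa replicate 1, and 6 and 7 without NkdΔ30aa replicate 2. Such fits leave 1 group a lone sample, whose variation is taken from the remaining groups.

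With the replicate number as a block, edgeR on 4 libraries called 0 higher and 0 lower, and 0 and 0 with gene length offsets in the same fit. The labels do not say what a number shares. The deviations of the replicates 1 from their group means correlated at 0.261 across genes. This single value from 2 pairs cannot decide whether the numbers pair samples. The main fit had the group as its only factor. With the block the 4 libraries have 1 residual degree of freedom.

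The log2 fold change of nkd, 0.20, was not called under any setting. It was -0.23 with gene length offsets, -0.24 with offsets and a replicate block, and between -0.0766 and 0.28 without 1 replicate. With offsets it was -0.21 and -0.25 without Nkd replicates 1 and 2, and -0.0312 and -0.45 without NkdΔ30aa replicates 1 and 2. The glue genes turned sign with Nkd replicate 1 left out, Sgs3 from -0.96 to 2.10 (2.33 with offsets) and Sgs5 from -3.91 to 1.86 (2.18 with offsets), while leaving out 1 replicate gave -4.07 to 2.10 and -6.95 to 1.86, and Sgs3 was 0.10 with offsets and without NkdΔ30aa replicate 2. sgg and CtBP were outside this check, and sgg turned sign with gene length offsets, as given above. The other named genes that were followed kept their direction under every setting. Of the 78 that were called, 48 lost their call with gene length offsets and 48 with salivary gland markers left out of the normalization. With a replicate block 78 lost it. Leaving out 1 replicate cost calls as well, most of all with either NkdΔ30aa library left out. The cause of these losses was not tested.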
